A study of Homo sapiens with 8 samples.

Results

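Expression ranks and N6-methyladenosine (m6A) peaks were examined for 10 genes of the heat shock response. They comprise the transcription factors HSF1 and HSF2, the small heat shock proteins HSPB1, HSPB8 and CRYAB, the HSP110 chaperone HSPH1, and the HSP70 co-chaperones BAG1, BAG2, BAG3 and BAG5. The genes were selected by symbol from a deposited table of 25918 gene models, in which each of the 10 had 1 row. The table described cultures labelled HepG2, a human hepatocarcinoma line, under 4 treatments, each with 1 anti-m6A immunoprecipitation library and 1 input library. Heat shock was 30 min at 43 degrees Celsius, and ultraviolet (UV) irradiation was 0.04 J/cm2, followed by a recovery of 4 h that the protocol text may also mean for heat shock. The ligand treatments, both overnight, were hepatocyte growth factor (HGF, also called scatter factor) at 10 ng/ml and interferon gamma (IFNg) at 200 ng/ml. No untreated culture was analysed here, so each treatment was set against the other 3. With 1 library of each kind per treatment, no difference below has a replicate check, and no neighbouring levels can be told apart by their spread.

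HSF1 is the main transcription factor of the heat shock response; it binds heat shock elements, inverted repeats of a GAA unit, upstream of chaperone genes. Small heat shock proteins hold unfolding proteins, HSP70 refolds them, and HSP110 and BAG proteins release nucleotide from HSP70. BAG3 also joins HSPB8 and HSP70 in a complex that hands damaged proteins to autophagy. The m6A mark is placed on mRNA mainly in long internal exons and near stop codons. The 5' UTR of heat shock mRNAs has been reported to gain m6A during heat stress, and the antibody also binds the related mark m6Am next to the cap.

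Expression was deposited as a quantile and is given here as a percentile of the gene model within its treatment, from the lowest to 100. It is a rank, with no amount behind it, so no fold change of expression can be given. The sources used here do not say whether it was corrected for transcript length, so a gene is compared across treatments and not with another gene. Many gene models shared the bottom rank of a treatment, here called its floor, at percentile 32.7 after heat shock, 45.5 after UV, 20.4 after HGF and 18.4 after IFNg. Before differences were taken, any value under 45.5 was set to 45.5 in every treatment. Depth is unknown. The whole table listed 9803 m6A peaks after heat shock, 13307 after UV, 9111 after HGF and 5280 after IFNg. The cell label was not matched by its markers. Of 10 hepatocyte and HepG2 markers, 9 lay under the 60th percentile in all 4 treatments, among them albumin (ALB, between 22.3 and 57.6) and alpha-fetoprotein (AFP, between 20.4 and 45.5, the floor in 3 treatments). The exception was TTR, which stood at 71.5 after heat shock and 76.1 after UV, and at 43.0 after HGF and 42.0 after IFNg. Of the 4 blood markers none passed the 60th percentile, and of 5 fibroblast and endothelial markers 1, COL1A1, did. Of 4 cholangiocyte markers, the keratin KRT7 stood between 99.2 and 99.8, KRT19 between 58.8 and 79.2, SOX9 between 43.7 and 61.0 and EPCAM between 18.4 and 50.2. The cultures are therefore called by their label only.

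HSPB8 and HSF2 ranked highest after heat shock, more than 10 percentile points above every other treatment. With GC content taken into account HSPB8 kept this mark against the median of the others, at 22.70 points, and HSF2 lost it, at 8.16. HSPH1 was 122nd from the top after heat shock, against 487th after UV, 1638th after HGF and 1732nd after IFNg, a direction that flipped in percentile points, though not in log2 places, once GC content was taken into account. HSPB1 and HSF1 were lowest in rank after heat shock and highest after IFNg, and both flipped in points under that correction. In log2 places, less the median of top-ranked gene models of like GC content, HSPB1 kept its direction after heat shock, at -1.13. HSF1 came to 0.15. The ranks of BAG1 and BAG3 differed by less than 3 points over all treatments, although BAG3 reached 12.39 points after heat shock under the GC correction. CRYAB lay on the floor after heat shock and HGF and stood above it after UV and IFNg.

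HSF1 (iduc003zbt.2, chromosome 8, 145486078 to 145509193, plus strand) stood at the 85.3rd percentile after heat shock, against 90.2 after UV, 94.3 after HGF and 96.6 after IFNg. The value after heat shock was the lowest, at -9.04 points from the median of the other 3, short of the 10-point mark used here. Counted from the top, HSF1 was 3808th after heat shock, against 2545th after UV, 1466th after HGF and 893rd after IFNg. HSF2 (iduc003pyu.1, chromosome 6, 122762494 to 122795810, plus strand), a factor that pairs with HSF1 on heat shock elements, stood at 79.1 after heat shock, against 55.1 after UV, 65.0 after HGF and 60.9 after IFNg. It lay 18.2 points above the median of the other 3 after heat shock and 14.06 points above the highest of them. After UV it lay 9.99 points below the median of the other 3. The mRNA ranks of the 2 factors therefore moved in opposite directions after heat shock relative to the other treatments, though HSF1 flipped to 7.22 points when GC content was taken into account.

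HSPB1 (also called HSP27; iduc003uew.1, chromosome 7, 75769859 to 75771546, plus strand) stood at 95.0 after heat shock, against 97.8 after UV, 99.2 after HGF and 99.4 after IFNg. These close percentiles hide a wide spread of places near the top, where HSPB1 was 1292nd after heat shock, 583rd after UV, 205th after HGF and 160th after IFNg. HSPB8 (also called HSP22; iduc001txb.1, chromosome 12, 118100978 to 118116934, plus strand), the partner of BAG3, stood at 88.5 after heat shock, against 73.1 after UV, 70.2 after HGF and 66.9 after IFNg. The value after heat shock was 18.3 points above the median of the other 3 and 15.43 points above the highest, which was UV. CRYAB (alpha B-crystallin; iduc001pmf.1, chromosome 11, 111284560 to 111287683, minus strand) lay on the floor after heat shock (32.7) and after HGF (20.4), and stood at 60.1 after UV and 53.0 after IFNg. CRYAB passed the low-value filter, a percentile of 60 in any treatment, through UV alone. Its 14.5 points above the median of the other 3 after UV therefore follow in part from the filter. It lay 7.08 points above the highest of them, IFNg. A floor value does not show that the transcript was absent.

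HSPH1 (also called HSP105; iduc001utj.1, chromosome 13, 30608763 to 30634117, minus strand) stood at 99.5 after heat shock, against 98.1 after UV, 93.7 after HGF and 93.3 after IFNg. From the top it was 122nd after heat shock, against 487th after UV, 1638th after HGF and 1732nd after IFNg. With places from the top put on a log2 scale, where a positive value is nearer the top, it differed by 3.75 after heat shock from the median of the other 3, the widest such difference among the 10 genes.

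BAG1 (iduc003zsj.1, chromosome 9, 33242470 to 33254761, minus strand), which couples HSP70 to the proteasome, stood at 96.3 after heat shock, 96.9 after UV, 96.6 after HGF and 95.5 after IFNg. BAG2 (iduc003pdr.1, chromosome 6, 57145293 to 57157694, plus strand), an inhibitor of the ligase CHIP, stood at 97.1 after heat shock and 97.1 after UV, against 92.7 after HGF and 91.5 after IFNg. It was 761st and 743rd from the top after the stresses, against 1883rd and 2210th after the ligands. BAG3 (iduc001lem.1, chromosome 10, 121400872 to 121427319, plus strand), itself a known HSF1 target, stood at 95.6 after heat shock, against 93.5 after UV, 92.9 after HGF and 93.0 after IFNg. It was 1154th from the top after heat shock and between 1695th and 1832nd elsewhere. BAG5 (iduc001ynh.1, chromosome 14, 103092642 to 103098367, minus strand), which carries several BAG domains, stood at 90.9 after heat shock, against 88.6 after UV, 82.3 after HGF and 79.1 after IFNg. Its shift after heat shock was 8.66 points and after IFNg it was -9.49, both short of 10. Coordinates are as deposited, with the start counted from 1, and the authors' genome build is not named in the sources used here.

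**Figure D1:**
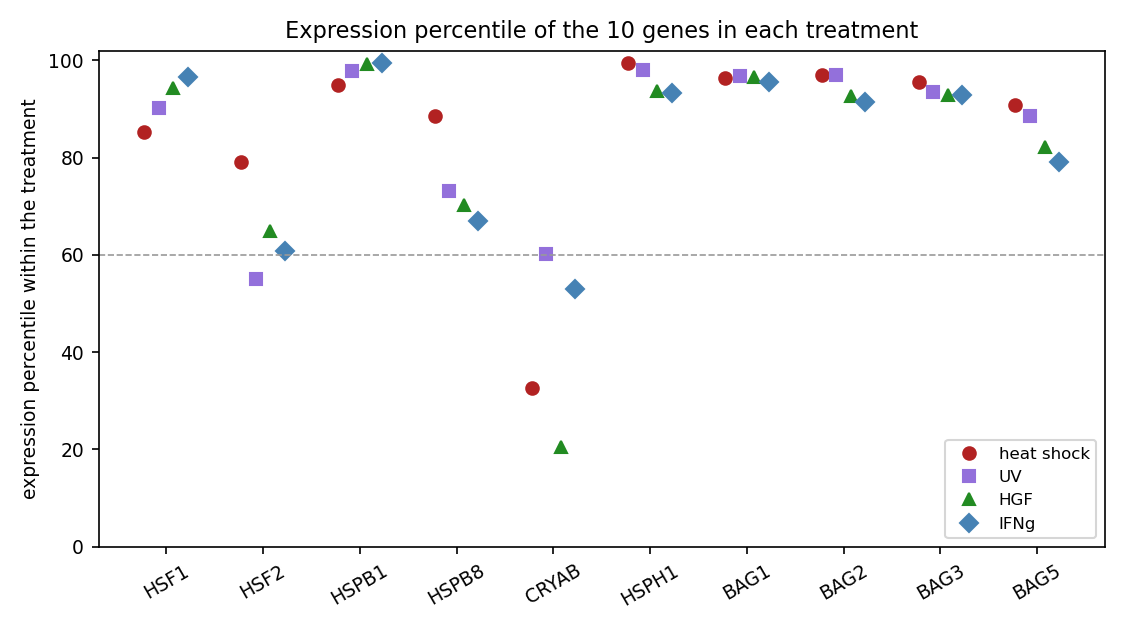
Expression percentile within the treatment (vertical axis) for each of the 10 genes (horizontal axis), with 1 point per treatment and a dashed line at the low-value filter of 60. HSF2 and HSPB8 lie highest after heat shock, at 79.1 and 88.5, and HSF1 lies lowest there, at 85.3, a direction that flipped with GC correction.

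Of the 10 genes, all of which passed the filter, 2 (HSF2 and HSPB8) lay at least 10 points above the other treatments' median after heat shock, where 15.0% of the 12624 gene models past the filter did so, and 0 lay that far below, where 17.0% did. The share above is near the background. After UV, 1 gene (CRYAB) lay above (background 10.9%) and 0 below (13.2%). After HGF, 0 lay above (13.0%) and 0 below (10.9%), and after IFNg, 0 lay above and 0 below (15.4% in each direction). The median shift of the 10 genes was 3.46 points after heat shock, 1.76 after UV, -1.71 after HGF and -2.61 after IFNg. Over all gene models past the filter it was 0.45 points after heat shock, 0.24 after UV, -0.24 after HGF and -0.18 after IFNg.

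Percentiles compress the top of the ranking, so places from the top were also compared on a log2 scale, with a 2-fold change of place as the mark. After heat shock, 3 genes (HSPB8, HSPH1 and BAG2) were at least 2-fold nearer the top than the median of the other treatments (background 8.62%), and 2 (HSF1 and HSPB1) at least 2-fold further from it (9.60%). After UV, 2 genes (HSPH1 and BAG2) were nearer (5.93%) and 1 (HSPB1) further (6.88%). After HGF, 1 gene (HSPB1) was nearer (8.36%) and 2 (HSPH1 and BAG2) further (5.55%). After IFNg, 2 genes (HSF1 and HSPB1) were nearer (10.3%) and 2 (HSPH1 and BAG2) further (8.45%). A change of this size is commoner near the top. Among the 2206 gene models whose mean percentile reached 90, which include 6 of the 10 genes, 20.7% were nearer and 20.8% further after heat shock, 16.7% and 14.6% after UV, 17.3% and 16.4% after HGF, and 18.2% and 24.3% after IFNg. Every gene named here but HSPB8 is in that range.

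**Figure D2:**
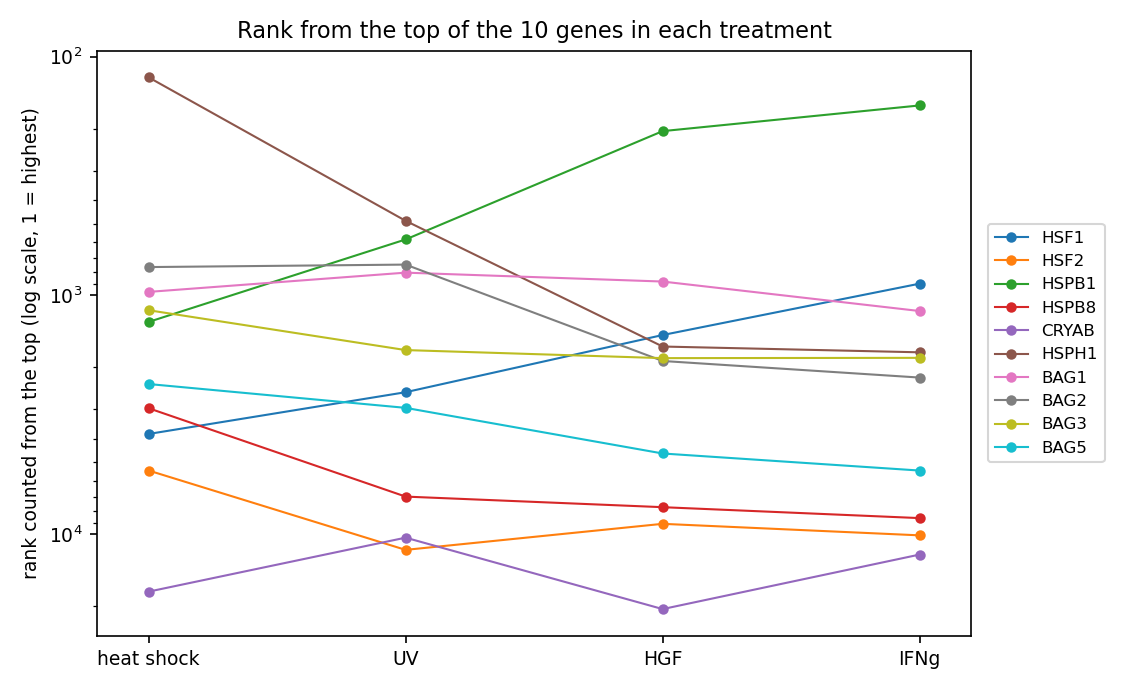
Rank counted from the top (vertical axis, log scale, 1 is the highest) for each gene in the 4 treatments (horizontal axis), with lines that only join the points of a gene. HSPH1 is 122nd after heat shock and 1732nd after IFNg, and HSPB1 is 1292nd after heat shock and 160th after IFNg. In percentile points both directions flipped with GC correction. In log2 places, less the median of top-ranked gene models of like GC content, both kept their direction after heat shock, at 2.80 and -1.13.

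GC content of the transcript moved with these differences. Gene models were put in 10 groups of rising GC content, and the mean percentile after heat shock and UV minus that after HGF and IFNg was taken. Over the 11129 gene models past the filter with a GC value, the median of this difference was 10.04 percentile points in the group with the lowest GC content and -11.81 in the group with the highest. HSF1 and HSPB1, at 64.7% and 64.3% GC, are in that last group, and their differences were -7.71 and -2.91 points. HSPH1, HSF2 and BAG2, between 37.0% and 40.5% GC, are in the lowest 2 groups, and their differences were 5.33, 4.09 and 4.99 points. Within their own GC group, 4 of the 10 genes (HSPB1, HSPB8, CRYAB and BAG3) lay above the upper quartile of gene models and 1 (BAG2) below the lower quartile. By definition 1 in 4 gene models lies above an upper quartile. CRYAB rests there on 2 floor values. HSPB1 and BAG2 are near the top, where percentiles can barely differ. Against top-ranked gene models of like GC content, HSPB1 lay below the lower quartile after heat shock (-2.66 against -2.24 in log2 places). BAG2 lay within the quartiles there. HSPB8, at 53.8% GC, differed by 12.26 points, in a group with quartiles of -8.00 and 0.68.

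**Figure D3:**
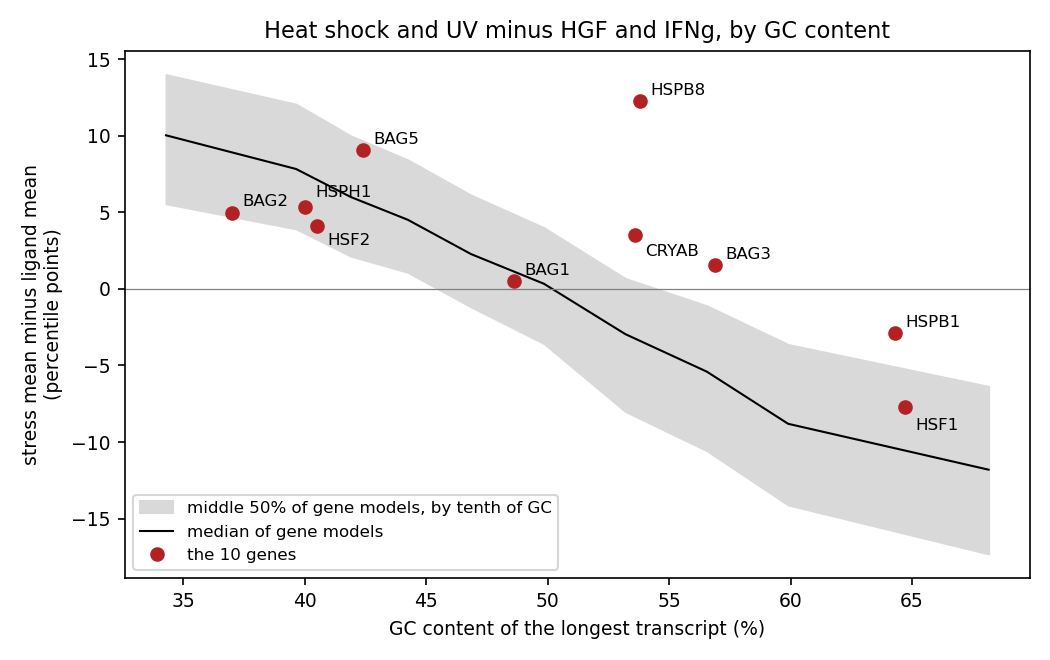
Mean percentile after heat shock and UV minus mean percentile after HGF and IFNg (vertical axis, points) against GC content of the longest transcript (horizontal axis, %), with the 10 genes as points, the median of gene models as a line and their quartiles as a band, both joined between the middles of the GC groups. HSPB8 lies farthest above the band, at 12.26, while HSF1, at -7.71, lies inside it.

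With the median percentile of gene models of like GC content subtracted in each treatment, the shift after heat shock was 22.70 points for HSPB8 (uncorrected 18.3) and 8.16 for HSF2 (uncorrected 18.2), which no longer passed the 10-point mark. BAG3 came to 12.39 points (uncorrected 2.60) and passed it. The same correction flipped 4 shifts, giving 7.22 points for HSF1 (uncorrected -9.04), 12.06 for HSPB1 (uncorrected -4.19), -2.33 for HSPH1 (uncorrected 5.85) and -5.97 for BAG2 (uncorrected 4.33). That correction treats top-ranked genes, whose percentiles can barely differ, like the rest, so a further comparison used only gene models of the same GC group whose mean percentile reached 90. There, the log2 place of HSPH1 after heat shock, 3.75, stood against a median of 0.94 and quartiles of 0.53 and 1.42 over 214 gene models. BAG3, at 0.66, stood against a median of -0.70 and quartiles of -1.27 and -0.25. HSPB1, at -2.66, stood against a median of -1.53 and quartiles of -2.24 and -0.99. HSF1, at -1.38, and BAG2, at 1.31, were within the quartiles of their GC groups, whose medians were -1.53 and 1.13. The part of base composition in the ranks was not tested further, and the labels give no batch, so batch and treatment cannot be told apart.

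HSPB8, HSPB1 and BAG2 held the palindromic heat shock element GAANNTTC near their RefSeq transcript start. They are shown because they were the 3 members with a match. The window ran from 250 bases before to 50 bases after each start, on build GRCh38.p14, and RefSeq promoters were at hand for 8 of the 10 genes. The other form of the element, TTCNNGAA, and both forms with a further unit matched in none of the 8. Over all 35116 promoters, GAANNTTC was found in 6.77%, TTCNNGAA in 7.74% and either in 13.5%. Both motifs read the same on either strand, and the forms can overlap. In the lines below, all on the plus strand and written 5' to 3', capitals mark the match.
HSPB8, chr12:119178803-119178890, match beginning at -88 from the start: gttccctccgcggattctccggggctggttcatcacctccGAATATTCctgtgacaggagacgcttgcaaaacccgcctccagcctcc
HSPB8, chr12:119178924-119178953, match beginning at base 5 of the transcript: aggagccagaaGAAGTTTCtaggcgcgcgt
HSPB1, chr7:76302451-76302538, match beginning at -182 from the start: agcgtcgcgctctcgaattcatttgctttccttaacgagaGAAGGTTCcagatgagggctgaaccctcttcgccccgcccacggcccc
BAG2, chr6:57172162-57172249, match beginning at -124 from the start: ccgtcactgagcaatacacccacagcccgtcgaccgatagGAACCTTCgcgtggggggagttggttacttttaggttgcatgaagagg
HSPB8, with 2 such matches, had a heat shock shift of 18.3 points, taken from the median of the other 3. BAG2 differed by 4.33 points and HSPB1 by -4.19, and both signs flipped with GC correction of the percentiles, to -5.97 and 12.06. In log2 places, less the median of top-ranked gene models of like GC content, neither sign flipped. There, BAG2 came to 0.18 and HSPB1 to -1.13. HSF2 (18.2 points), HSPH1 (5.85 points), BAG1, BAG3 and BAG5 had no match in this window, which says nothing of elements elsewhere or of factor binding. A link between these matches and rank was not tested.

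The m6A peaks numbered 12 after heat shock, 11 after UV, 10 after HGF and 5 after IFNg in the 10 genes. A peak was listed in 9 genes after heat shock (background 43.9% of gene models past the filter), in 9 after UV (54.5%), in 7 after HGF (42.2%) and in 4 after IFNg (27.8%). Peaks are listed more often in high-ranked transcripts. At the 90th percentile or above, a peak was listed in 6 of 6 of these genes after heat shock (56.5% of all gene models in that range), in 6 of 6 after UV (67.9%), in 5 of 6 after HGF (49.1%) and in 3 of 6 after IFNg (38.2%). Those 6 were not a fixed set, since BAG5 reached that range only after heat shock, and HSF1 only after UV, HGF and IFNg. HSF1, BAG1 and BAG5 had a peak in every treatment, and CRYAB had none. A peak that is not listed does not show an unmethylated transcript, and peak numbers can follow depth, which is unknown.

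**Figure D4:**
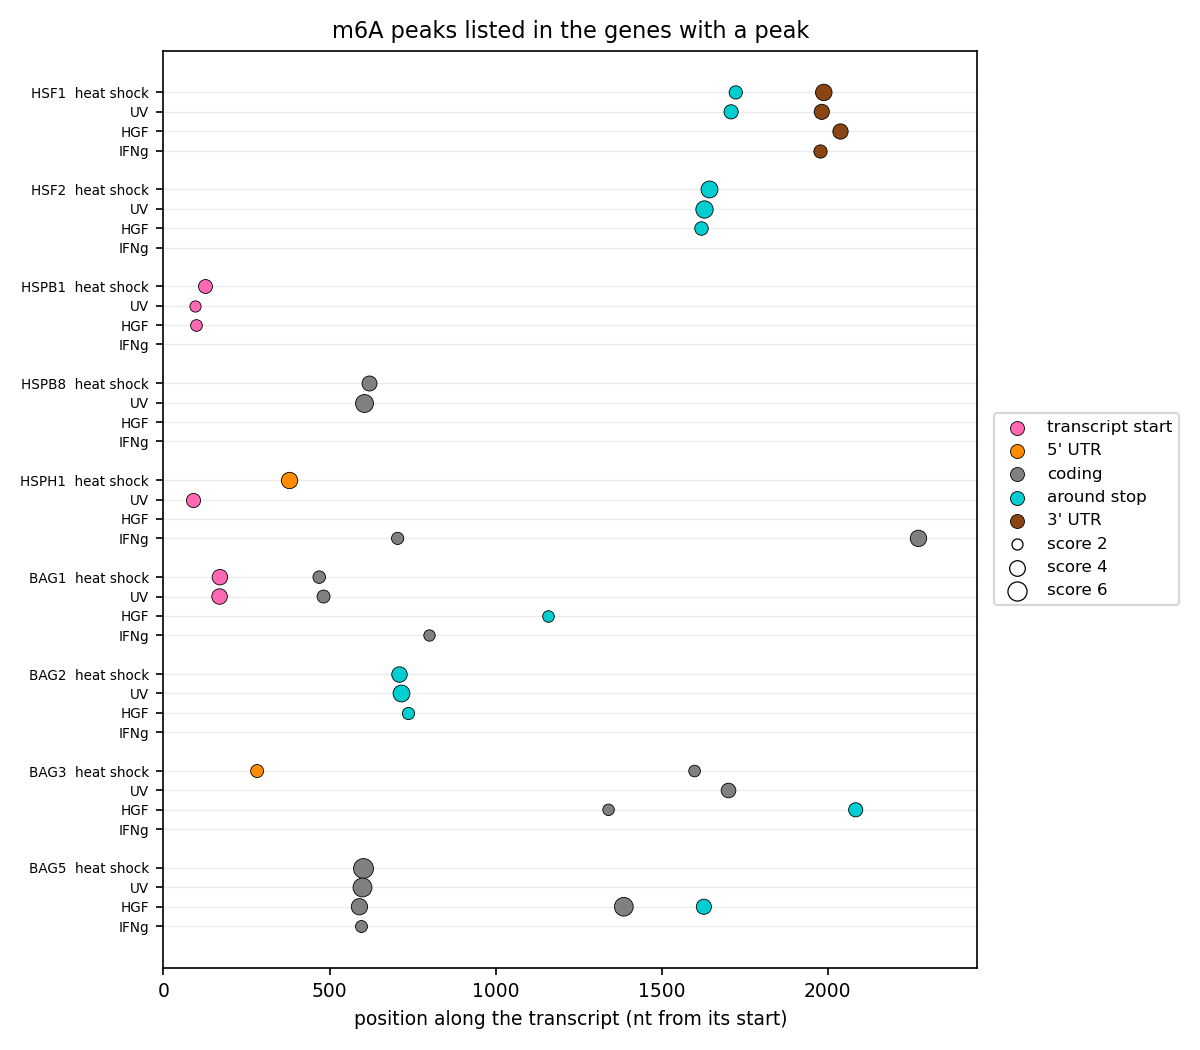
Position along the transcript (horizontal axis, nt from its start) of every m6A peak listed in the 9 genes with a peak, with 1 row per gene and treatment, colour for the transcript segment and area for the authors' score. HSPB1, BAG1, HSPH1 and BAG3 have a peak at the transcript start or in the 5' UTR after heat shock, and the coding peak of BAG5 at 590 to 601 nt recurs in all 4 treatments.

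Peaks near the 5' end were most numerous after the stresses. A peak labelled transcript start or 5' UTR was found in 4 of 10 genes after heat shock (HSPB1, HSPH1, BAG1 and BAG3; background 8.21%), in 3 after UV (HSPB1, HSPH1 and BAG1; 12.0%), in 1 after HGF (HSPB1; 3.83%) and in 0 after IFNg (1.10%). At the 90th percentile or above the share over all gene models was 23.9% after heat shock and 30.2% after UV. It was 8.14% after HGF and 1.77% after IFNg. Of these genes, 4, 3, 1 and 0 of the 6 in that range had such a peak. As above, the 6 differed between heat shock and the other treatments. HSPB1 had its only site in exon 1 at the transcript start, at position 125 after heat shock (the authors' score 3.18), 95 after UV (2.08) and 99 after HGF (2.26). The lowest score in the table was 2, so the UV and HGF peaks were close to the listing limit. HSPH1 had a peak in the 5' UTR at position 377 of its 505-nt exon 1 after heat shock, with a score of 4.42. After UV its peak lay at position 90, at the transcript start, with a score of 3.30, and no peak was listed after HGF. After IFNg it had 2 coding peaks, at 705 in exon 4 (2.46) and at 2273 in exon 14 (4.43). The m6A positions of HSPH1 thus shared no site between treatments. BAG3 had a 5' UTR peak after heat shock alone, at position 282 of its 486-nt exon 1, with a score of 2.77, at the 21.1st percentile of all heat shock scores. No peak with the label 5' UTR was listed in HSPH1 or BAG3 in another treatment. The UV peak of HSPH1 at position 90, labelled transcript start, lay upstream of position 377 in the same exon.

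BAG1 had the same pair of exon 1 sites after both stresses. The first lay at the transcript start, at position 170 after heat shock (score 3.94) and 169 after UV (3.96), and the second in coding sequence, at 469 after heat shock (2.58) and 482 after UV (2.77). After HGF its single peak lay around the stop codon, at 1158 in exon 7 (2.22), and after IFNg in coding sequence, at 800 in exon 4 (2.13). The rank of BAG1 was nearly level over these treatments, between 95.5 and 96.9, while the listed positions differed. The HGF and IFNg peaks, with scores of 2.22 and 2.13, were close to the listing limit of 2. Whether the positions differ apart from that limit was not tested.

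Of 7 sites around the stop codon or in the 3' UTR, 4 recurred between treatments, and 3, in BAG1, BAG3 and BAG5, were listed after HGF alone. HSF1 had a 3' UTR site in exon 13 in all 4, at position 1988 after heat shock (score 4.49), 1982 after UV (3.78), 2036 after HGF (3.85) and 1977 after IFNg (2.90). A second site, around the stop codon, lay at 1723 after heat shock (2.89) and at 1709 after UV (3.32). HSF2 had 1 site around the stop codon in exon 13, at 1643 after heat shock (4.71), 1628 after UV (4.93) and 1619 after HGF (3.00). It was listed after UV, where HSF2 ranked lowest, at 55.1, and not after IFNg, at 60.9. BAG2 had 1 site around the stop codon in exon 3, at 710 after heat shock (3.95), 714 after UV (4.66) and 737 after HGF (2.46).

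The remaining peaks lay in coding sequence, apart from those of BAG5 and BAG3 around the stop codon after HGF. HSPB8 had 1 site in exon 1, at 619 after heat shock (score 3.71) and 605 after UV (5.30). The score was lower after heat shock, where the gene ranked higher. BAG5 had a coding site in exon 2 in every treatment, at 601 after heat shock (6.49), 599 after UV (5.89), 590 after HGF (4.37) and 596 after IFNg (2.36). The heat shock score was at the 98.2nd percentile of all heat shock scores and the IFNg score at the 19.7th of all IFNg scores. After HGF, BAG5 had 2 further peaks in the same exon, at 1386 in coding sequence (5.77) and at 1627 around the stop codon (3.79). BAG3 had coding peaks in exon 4 at 1599 after heat shock (2.24), 1701 after UV (3.54) and 1340 after HGF (2.17), and a peak around the stop codon at 2084 after HGF (3.30). The heat shock and UV positions were more than 100 nt apart and counted as separate sites.

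**Figure D5:**
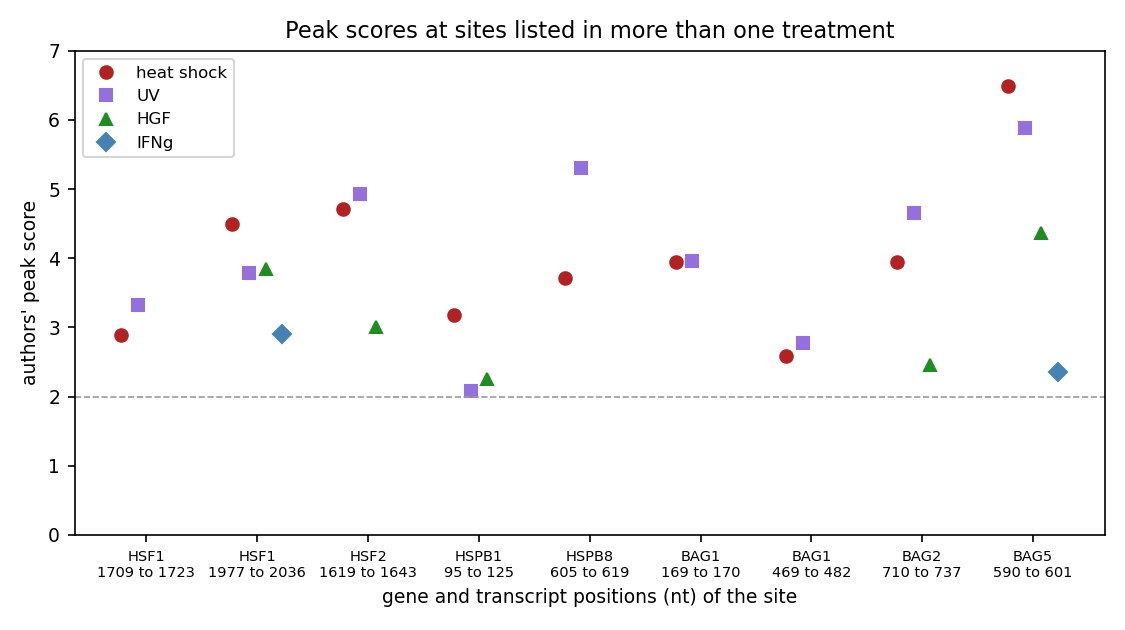
The authors' peak score (vertical axis) at the 9 sites listed in more than 1 treatment, named by gene and transcript positions (horizontal axis), with 1 point per treatment and a dashed line at the lowest score in the table, 2. At BAG5 the point is at 6.49 after heat shock and at 2.36 after IFNg, and the 3' UTR site of HSF1 is the other site with all 4 points.

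When peaks within 100 nt were joined, the 38 peaks formed 22 sites. Of these, 2 were listed in all 4 treatments (in HSF1 and BAG5), 3 in 3 treatments (in HSF2, HSPB1 and BAG2), 4 in 2 treatments and 13 in 1 treatment. All 4 sites listed in 2 treatments were shared by heat shock and UV. Single-treatment sites numbered 3 after heat shock, 2 after UV, 5 after HGF and 3 after IFNg. The median score of the members' peaks was 3.83 after heat shock, 3.78 after UV, 3.15 after HGF and 2.46 after IFNg, against 3.72 after heat shock, 4.07 after UV, 3.33 after HGF and 3.01 after IFNg over all peaks of the table.

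Genes related to these by family or by regulation were examined as lists. Of 21 HSF1 targets and partners, 20 passed the filter. With shifts taken from the median of the other 3, heat shock moved 2 up by at least 10 points and 0 down. The background was 15.0% up and 17.0% down among all gene models past the filter. Those moved up were the co-chaperones DNAJB4 (24.13 points) and CHORDC1 (16.02 points), which also passed the mark after UV (18.57 and 11.10). Neither passed it against UV itself. DNAJB4 stood at 92.0 after heat shock and 86.4 after UV, and CHORDC1 at 96.8 and 91.9. On the log2 scale 8 of the 20 were at least 2-fold nearer the top after heat shock and 2 further from it, against 8.62% and 9.60% of all gene models past the filter and 20.7% and 20.8% of those whose mean percentile reached 90. After UV 9 were nearer and 0 further, after HGF 0 and 8, and after IFNg 1 and 13. The split was therefore not particular to heat shock. Among gene models whose mean percentile reached 90, the shares were 16.7% and 14.6% after UV and 17.3% and 16.4% after HGF. After IFNg they were 18.2% and 24.3%. Most of these targets are near the top, and their GC content was not taken into account. Their median shift after heat shock was 0.75 points against 0.45 over all gene models past the filter. HSP90AA1, the stress-inducible HSP90, was 29th after heat shock, against 53rd after UV, 289th after HGF and 330th after IFNg. DNAJB1, the HSP40 that works with HSP70, was 3537th after heat shock, against 1980th after UV, 1440th after HGF and 1458th after IFNg. UBB, which encodes ubiquitin, was the other that lay further from the top after heat shock. After IFNg 4 of the 20 lay 10 points or more below the median of the other 3, against 15.4% of all gene models past the filter. They were DNAJB4 (-30.00), CACYBP (-18.22), the calcyclin-binding protein, HSPA1A (-15.41) and CHORDC1 (-13.79). After HGF 2 lay that far below, DNAJB4 (-18.57) and CHORDC1 (-11.10), against 10.9%. CHORDC1 stood at 78.1 after IFNg and 80.8 after HGF. A peak was listed in 17 of the 20 after heat shock, 18 after UV, 11 after HGF and 6 after IFNg. The share of gene models past the filter was 43.9% after heat shock, 54.5% after UV, 42.2% after HGF and 27.8% after IFNg. Among those that reached the 90th percentile it was 56.5% after heat shock, 67.9% after UV, 49.1% after HGF and 38.2% after IFNg. HSPA1A, inducible HSP70, stood at 91.7 after heat shock, against 84.9 after UV, 91.2 after HGF and 75.8 after IFNg, and HSPA1B at 88.3 after heat shock, against 89.0 after UV, 87.5 after HGF and 80.8 after IFNg. These 2 genes are nearly identical in sequence, so their separate ranks are uncertain. HSPA6, an HSP70 gene known to be almost silent without stress, was on the floor after heat shock (32.7) and after UV (45.5). It stood at 30.2 after HGF and 20.3 after IFNg, so it stayed under the filter in all 4 treatments.

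Of the HSP110 and HSP70 relatives of HSPH1, HSPA4L stood at 98.0 after heat shock, against 94.8 after UV, 86.6 after HGF and 83.3 after IFNg. Its shift, taken from the median of the other 3, was 11.38 points after heat shock and -11.47 after IFNg. HSPA4 was 138th from the top after heat shock, against 220th after UV, 896th after HGF and 1078th after IFNg. The endoplasmic reticulum member HYOU1 was 570th after heat shock, against 905th after UV, 853rd after HGF and 488th after IFNg. Of 7 other genes listed by symbol with the small heat shock proteins, 2 passed the filter. HSPB7, known from heart muscle, stood at 35.6 after heat shock, against 59.6 after UV, 84.4 after HGF and 71.0 after IFNg, and its shift after heat shock was -25.48 points. HSPB11 differed the other way, at 94.8 after heat shock, against 91.9 after UV, 88.2 after HGF and 84.3 after IFNg, with a log2 shift of 1.17 after heat shock. HSPB2, which lies beside CRYAB, stayed under the filter, at 49.7 after heat shock, 45.5 after UV, 20.4 after HGF and 57.0 after IFNg. BAG4 stood between 77.7 and 81.0 and had 2 peaks each after UV and HGF. BAT3, the older name of BAG6, was 1610th after heat shock and 1510th after UV, against 215th after HGF and 337th after IFNg. Of the other heat shock factors reported here, HSF5 and HSFX1 stayed under the filter, and HSF4 stood at 61.8 after heat shock, 53.2 after UV, 72.7 after HGF and 68.8 after IFNg, with shifts of -15.65 points after UV and 10.93 after HGF.

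By closeness of percentile in all 4 treatments, the gene models most like HSPB8 were C18orf32, COPG2 and CR610863, whose largest difference from it in any treatment was 3.71, 3.73 and 3.78 points. Those most like HSF2 were ALS2CR16, BC015846 and TMEM14E, at 2.70, 3.33 and 3.95 points. None of the 6 had a listed peak in any treatment. HSPB8 and HSF2 had a peak listed after 2 and 3 treatments, at the same site within each gene. The share of gene models with a peak at these ranks was not taken, so this difference cannot be weighed.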

How the data were processed

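Per the labels' protocols, polyA-selected RNA in pieces of about 100 nt was pulled down by an antibody to m6A, and the input was sequenced too. The authors deposited, per the file headers, an expression quantile for each gene model and treatment, a fraction from 0 to 1, and for each m6A peak a position, exon, segment and score. The deposited score has no formula here. Not given in the sources used here are aligner, peak caller, genome build and the library, IP or input, behind a value. The fraction was multiplied by 100 to give a percentile. Multiplied by the 25918 gene models it is a whole rank. Depth is unknown, so counting error could not be given. Earlier results of these data were known when the genes, lists and marks were chosen. The marks were 10 points, a filter of 60, and peaks joined within 100 nt. The rule named all members, related genes past 10 points, and for a member 10 points beyond all other treatments the 3 gene models closest in percentile. Other related genes were chosen after their values were seen, and Y-linked heat shock factors are not reported. No test across treatments was made with 1 library a group. Alternatives covered floors, scale, thresholds, filter, score minimum, joining distance and GC content. GC content came from the longest GENCODE 29 transcript (88.2% of gene models past the filter), in 40 bins or, for top-ranked gene models, 10. Software was pandas 2.3.3 and NumPy 2.4.6 under Python 3.11.15, with matplotlib 3.10.9 for plots, and calculations were tested on simulated data.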

Additional observations from a re-analysis of the deposited data

How the results depend on the processing

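Alternatives to the 10-point count changed it as follows. At 5 points, 4 genes were higher and 2 lower after heat shock, 2 and 1 after UV, 0 and 2 after HGF, and 2 and 3 after IFNg. At 20 points none was higher after heat shock or UV, with 0 each. On the log2 rank scale 3 were higher after heat shock, where HSF2 (0.90) was lost and HSPH1 and BAG2 were gained, and 2 were lower. On that scale 2 were higher and 1 lower after UV, 1 and 2 after HGF, and 2 and 2 after IFNg. With floors as deposited, CRYAB made 1 gene lower after heat shock, 1 lower after HGF and 1 higher after IFNg. Beyond all other treatments, 0 were higher after UV, as with a filter at 75 (0) and against IFNg alone (0). Against UV alone, 1 was lower after heat shock and 1 lower after HGF. Against IFNg alone, 1 was lower after heat shock. Against heat shock alone, 2 were lower after UV and 2 after HGF, and after IFNg 1 was higher and 3 lower. With GC correction, 3 were higher after heat shock, where HSF2 (8.16) was lost and HSPB1 (12.06) and BAG3 (12.39) were gained, 2 were higher and 1 lower after UV, 1 lower after HGF and 1 lower after IFNg. With GC correction the heat shock shifts turned to 7.22 for HSF1, 12.06 for HSPB1, -2.33 for HSPH1 and -5.97 for BAG2, and against top-ranked models of the same GC group the log2 shift of HSF1 turned to 0.15; the cause was not tested. Requiring a score of 4, 4 genes with 4 peaks were left after heat shock, 4 with 4 after UV, 1 with 2 after HGF and 1 with 1 after IFNg. Requiring 3, 3 genes with 5 peaks were left after HGF and 1 with 1 after IFNg. Joining peaks within 50 or 200 nt left 2 sites in all 4 treatments. No paired analysis was possible because each group has 1 sample and no result comes from a test. Of 173 alternative values, 119 were close to the main value, which for a count does not mean the same genes. GC correction was added after the data had been seen. Unknown depth and the lack of replicates limit every comparison.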
